A study of Mus musculus with 10 samples.

Results

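The genes of 10 transcription factors of the cardiac lineage were followed across hearts of Rit1 M90I/+ mice given a MEK inhibitor (MEKi) or vehicle. They are the zinc finger factors Gata4 and Gata6, the homeodomain factor Nkx2-5, the T-box factors Tbx5 and Tbx20, the MADS-box factors Mef2a, Mef2c, Mef2d and Srf, and the basic helix-loop-helix factor Hand2. They were taken by name from the expression table and make up 10 of its 54532 genes. Nkx2-5 and Mef2a stood higher in each of the MEKi hearts than in any vehicle heart, with means 22.7 and 23.9% above those of vehicle, but none of the 10 genes passed the threshold over all genes tested. The other 8 overlapped between the groups. Of all genes tested, 1.64% did not overlap between the groups, and 0.794% were higher with MEKi in this way. When each heart was rescaled to the same sum of FPKM, the Nkx2-5 groups overlapped. Transcripts of the X and Y chromosomes divided the hearts exactly as treatment did. A difference between treatments and one that follows these transcripts cannot be told apart.

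These factors bind short DNA motifs in the promoters and enhancers of genes for the sarcomere, calcium handling, gap junctions and natriuretic peptides, often several at one site and in contact with each other. In the embryo they specify and pattern the heart, and in the adult they remain expressed in the myocardium, where Gata4, the Mef2 factors and Srf are known for their part in growth of the muscle cell. MAPK signaling reaches some of them as proteins, for example through phosphorylation of Gata4 and of the ternary complex factors that accompany Srf. RNA-seq reads the transcripts of these genes and not such modification.

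Rit1 encodes a RAS-related GTPase, and its M90I variant models Noonan syndrome, a developmental disorder with heart defects. All 10 mice carried the germline Rit1 M90I allele in the heterozygous state, obtained by crossing males homozygous for the conditional allele with females homozygous for a Cre deleter transgene driven by the cytomegalovirus promoter, so the variant was not limited to heart muscle. The vehicle control and MEKi groups gave 5 hearts each. The MEKi mice received trametinib, an allosteric inhibitor of MEK1 and MEK2, daily at 1 mg/kg. In both groups treatment began at the age of 4 weeks and lasted 20 weeks, with a last dose 2 hours before euthanasia. The question of the comparison is how MEK inhibition acts on the transcriptome of hearts with this variant. The labels call the hearts biological replicates. Males and females entered the trial, and the labels give no sex for a heart.

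Expression was deposited as FPKM, fragments scaled to gene length and to a library size. The fragments recovered from these values totaled from 13647167 to 18474002 per heart (median, 15215992). The library size implied by the values was from 0.925 (vehicle heart 3) to 1.06 (vehicle heart 2) times that total. A factor below 1 raises the FPKM of its heart. The mitochondrial share of the recovered fragments was between 24.7 and 35.0% with vehicle and between 24.0 and 28.7% with MEKi. Transcripts of the X and Y chromosomes divided the hearts exactly as treatment did. Xist, which silences an X chromosome in females, had at most 2 fragments per vehicle heart and from 1456 to 2199 per MEKi heart, whereas the Y-linked Ddx3y, Eif2s3y and Uty had 0 fragments in every MEKi heart while the vehicle means were 11.2 ± 0.714, 9.74 ± 1.01 and 1.82 ± 0.584 FPKM (SD, n = 5). For every factor below, a difference between treatments and one that follows these transcripts cannot be told apart. Vehicle hearts 4 and 5 and MEKi heart 2 were high in atrial transcripts, and vehicle hearts 4 and 5 also in haemoglobin transcripts. Values without them are given where a result rests on them. As these are whole-tissue libraries, fewer cells of a type and less RNA per cell cannot be told apart.

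The DNA just upstream of the members' RefSeq starts was read first, since several of these factors are known to act on each other's genes. RefSeq promoter sequences of GRCm38.p6 were matched by symbol for 7 of the 10 members, with 3 starts for Mef2c and thus 9 windows of the 250 bases before a start. Gata4, Gata6 and Tbx5 had no entry. Srf is shown for its paired CArG boxes, the motif that Srf itself binds, Hand2 for its GATA sites, and Nkx2-5 and Mef2a because their transcripts were the members whose groups did not overlap. The windows are Srf, chr17:46556176-46556412 on the minus strand, Hand2, chr8:57320733-57320982 on the plus strand, Nkx2-5, chr17:26841609-26841815 on the minus strand, and Mef2a, chr7:67372859-67373108 on the minus strand, each written 5′ to 3′ toward the gene. The 13 bases of the Srf window and 43 of the Nkx2-5 window that GENCODE M21 places inside an exon of the gene are left out. In GENCODE M21 the Nkx2-5 gene extends to 26845009, so its printed window lies inside that annotated gene. Capitals mark matches to a CArG box, a MEF2 site or a GATA site on either strand.
Srf: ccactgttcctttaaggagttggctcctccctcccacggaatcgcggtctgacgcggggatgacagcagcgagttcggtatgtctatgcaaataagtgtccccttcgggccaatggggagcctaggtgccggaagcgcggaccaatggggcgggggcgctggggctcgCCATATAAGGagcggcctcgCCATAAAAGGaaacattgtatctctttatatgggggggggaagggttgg
Hand2: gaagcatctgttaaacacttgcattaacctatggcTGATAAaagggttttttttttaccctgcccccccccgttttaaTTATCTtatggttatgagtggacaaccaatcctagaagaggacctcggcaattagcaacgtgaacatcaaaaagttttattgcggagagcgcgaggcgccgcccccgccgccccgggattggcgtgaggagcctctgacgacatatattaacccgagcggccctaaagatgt
Nkx2-5: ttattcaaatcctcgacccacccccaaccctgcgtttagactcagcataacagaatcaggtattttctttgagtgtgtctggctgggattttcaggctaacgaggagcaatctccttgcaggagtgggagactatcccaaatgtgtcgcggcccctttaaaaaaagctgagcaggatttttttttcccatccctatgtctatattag
Mef2a: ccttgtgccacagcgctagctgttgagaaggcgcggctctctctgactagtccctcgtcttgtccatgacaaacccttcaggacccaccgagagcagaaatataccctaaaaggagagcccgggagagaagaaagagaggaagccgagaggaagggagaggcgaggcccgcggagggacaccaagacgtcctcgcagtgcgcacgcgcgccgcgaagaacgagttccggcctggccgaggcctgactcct

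The Srf window held CCATATAAGG at 82 to 73 bases and CCATAAAAGG at 62 to 53 bases before the RefSeq start. A CArG box occurred in 1.47% of the 32851 RefSeq windows of this length and in no other of the 9 member windows. GATA sites, read as the word AGATAA, the word AGATAG, the word TGATAA or the word TGATAG, occurred in 26.5% of all windows. Among the members the Hand2 window alone had them, TGATAA at 215 to 210 bases and AGATAA on the opposite strand at 172 to 167 bases before the start. The HAND E-box CATCTG occurred in 14.4% of all windows and in 2 of the 9, those of Hand2 (246 to 241 bases before the start) and of 1 Mef2c start (245 to 240 bases). The MEF2 site (2.92% of all windows), the T-box half-site GGTGTGA (3.33%) and the NK2 site TNAAGTG (10.1%) were found in 0 of the 9 windows. The Nkx2-5 and Mef2a windows held none of the 6 motifs. Both strands were searched, and a match describes letters and not binding.

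Per length of gene, the 10 factors spanned a 19.1-fold range of mean level over the 10 hearts. The lengths in the table ran from 1525 bases for Nkx2-5 to 15715 for Mef2c, and the order rests on them. In fragments, Mef2a (14681 bases) had from 1289 to 2152 per heart and Nkx2-5 from 903 to 1636. Nkx2-5, the homeodomain factor of the heart and its conduction system, was the most abundant at 54.5 ± 7.20 FPKM (SD over 10 hearts) and ranked 7th of the 1469 genes assigned to a transcription factor family in the table. Srf at 26.8 ± 4.94 FPKM and Gata4 at 22.1 ± 3.10 FPKM came next, with ranks 21 and 24. Mef2d at 14.8 ± 1.84 FPKM and Hand2 at 13.0 ± 1.19 FPKM formed the middle of the order. Mef2a stood at 7.38 ± 1.04, Gata6 at 6.81 ± 1.04, Tbx20 at 5.18 ± 1.41, Tbx5 at 4.40 ± 0.777 and Mef2c, the lowest, at 2.85 ± 0.363 FPKM, where it still ranked 303rd among the factor genes. Neighbors in this order were compared within hearts by a two-sided exact sign-flip permutation test of the log2 difference, adjusted over the 9 pairs. The test asks whether the order in FPKM holds across hearts and takes the lengths as given. Mef2a and Gata6 did not differ beyond their spread, with Mef2a above Gata6 in 8 of 10 hearts (exact p = 0.102, adjusted p = 0.102). Mef2d was above Hand2 in 7 of 10 hearts (exact p = 0.0293, adjusted p = 0.0377), and Tbx20 above Tbx5 in 8 of 10 (exact p = 0.0352, adjusted p = 0.0396). In the other 6 pairs the order was the same in 10 of 10 hearts, with the smallest p that the test allows (exact p = 0.00195, adjusted p = 0.00293). Each member had between 242 and 2152 fragments in every heart.

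**Figure D1:**
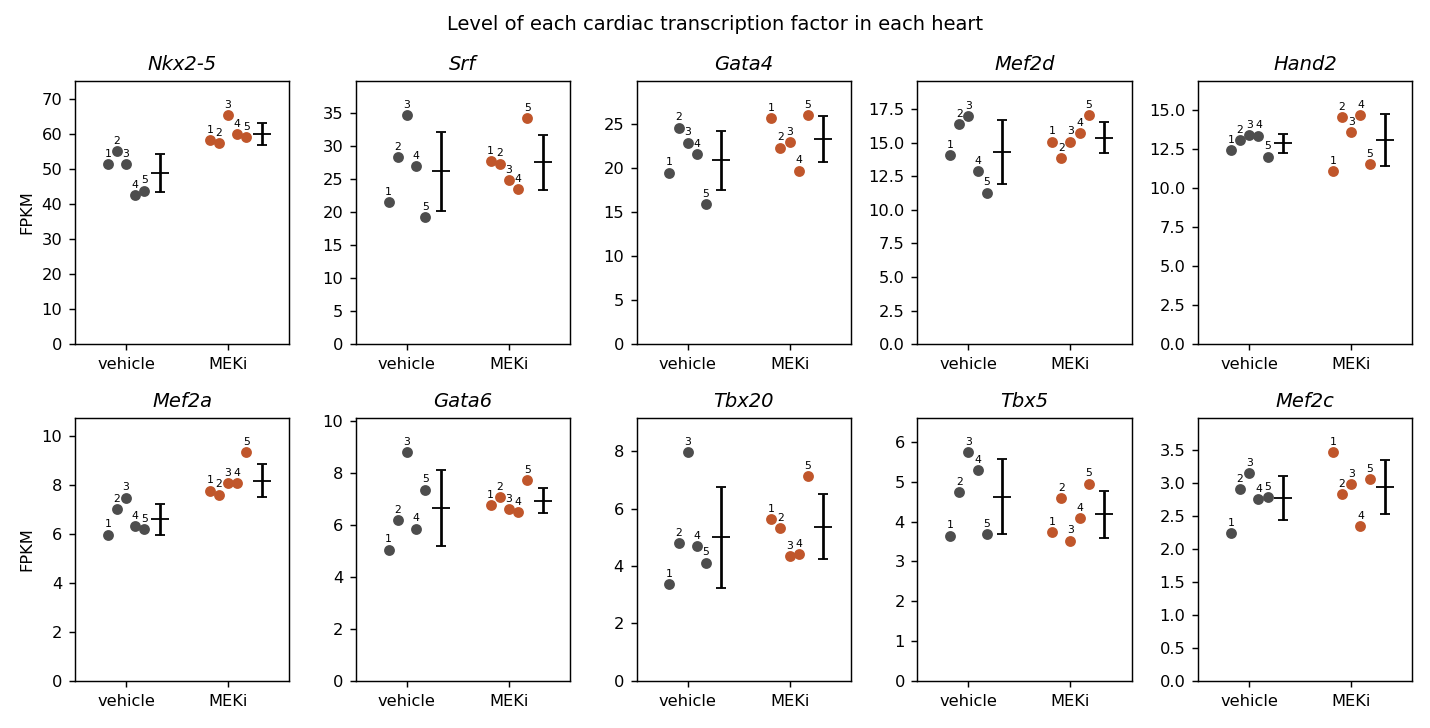
FPKM of each of the 10 factors (vertical axes, from 0, each panel on its own scale) in vehicle hearts 1 to 5 (grey) and MEKi hearts 1 to 5 (orange), with the group mean and SD as bars at the right of the points. The groups separate for Nkx2-5 and Mef2a and overlap for the other 8 factors, and vehicle heart 3 and MEKi heart 5 are often the highest of their group.

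Nkx2-5 (chromosome 17, 26838664 to 26841565, minus strand) controls chamber and conduction system genes together with Gata4 and Tbx5. In vehicle hearts 1 to 5 it was at 51.6, 55.1, 51.6, 42.5 and 43.9 FPKM. MEKi hearts 1 to 5 had 58.2, 57.4, 65.4, 60.0 and 59.2 FPKM. The lowest MEKi heart was 2.35 FPKM above the highest vehicle heart, and vehicle hearts 4 and 5 were the lowest of all. The group means were 48.9 ± 5.42 and 60.0 ± 3.15 FPKM (SD, n = 5), a log2 fold change of 0.30 (SE 0.09, 95% interval 0.10 to 0.50; adjusted p = 0.461 by limma, with Benjamini-Hochberg adjustment over 12602 genes). By exact permutation of the hearts, two-sided, p was 0.00794, the smallest that groups of 5 and 5 allow. The hearts lowest in Nkx2-5 were also those highest in blood markers: the summed FPKM of 5 haemoglobin and erythroid genes was 23639 in vehicle heart 4 and 25874 in vehicle heart 5 and from 2899 to 7386 in the other 8. The summed atrial markers, 7 genes, reached 2196 in vehicle heart 4, 842 in vehicle heart 5 and 1136 in MEKi heart 2 and at most 473 elsewhere. Without vehicle hearts 4 and 5, Nkx2-5 had a log2 fold change of 0.19 (adjusted p = 0.682 by limma), and without these and MEKi heart 2 it had 0.20 (adjusted p = 0.796 by limma), in both cases with an unadjusted p above 0.05. The groups could not overlap in either case, since leaving out hearts cannot join groups that are apart with all hearts. Over all genes tested, 5.33 and 7.25% did not overlap with these hearts left out.

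Mef2a (chromosome 7, 67231163 to 67372858, minus strand), which in adult heart supports sarcomere and mitochondrial genes, was at 5.97, 7.02, 7.47, 6.31 and 6.19 FPKM in vehicle hearts 1 to 5. In MEKi hearts 1 to 5 it was at 7.76, 7.60, 8.07, 8.06 and 9.33 FPKM. The groups were separated by 0.129 FPKM, between vehicle heart 3 and MEKi heart 2. The means were 6.59 ± 0.629 and 8.16 ± 0.682 FPKM (SD, n = 5), with a log2 fold change of 0.31 (SE 0.09, 95% interval 0.10 to 0.51; adjusted p = 0.461 by limma). By exact permutation, p was again 0.00794, the value that groups of 5 and 5 without overlap always give. Without the 3 hearts high in atrial transcripts Mef2a had a log2 fold change of 0.28 (adjusted p = 0.770 by limma), and without vehicle hearts 4 and 5 it had 0.26 (adjusted p = 0.670 by limma), in both cases with an unadjusted p under 0.05. When FPKM were rescaled to the same sum in each heart (TPM), a scale on which the median log2 fold change of all genes tested moved from 0.01 to 0.09, Mef2a remained without overlap at a log2 fold change of 0.39, whereas the Nkx2-5 groups overlapped at 0.38.

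The paralogs of Mef2a gave smaller differences. Mef2d (chromosome 3, 88142372 to 88172086, plus strand) was the most abundant of the Mef2 genes in FPKM and is linked to stress-dependent growth. It ranged from 11.3 to 17.0 FPKM (median, 14.1) in vehicle hearts and from 13.9 to 17.0 (median, 15.1) in MEKi hearts. Its log2 fold change was 0.11 (SE 0.12, 95% interval −0.15 to 0.37; adjusted p = 0.860 by limma). Mef2c (chromosome 13, 83504034 to 83667080, plus strand), which drives early heart tube genes, ranged from 2.23 to 3.15 FPKM (median, 2.79) in vehicle and from 2.34 to 3.46 (median, 2.98) in MEKi hearts, with a log2 fold change of 0.08 (SE 0.13, 95% interval −0.20 to 0.36; adjusted p = 0.917 by limma). Within each heart, Mef2d supplied most of the summed FPKM of the 3 genes. Its share was 60.3 ± 3.05% in vehicle and 58.0 ± 1.25% in MEKi hearts (SD, n = 5), that of Mef2a 28.0 ± 1.66 and 30.8 ± 0.826%, and that of Mef2c 11.8 ± 1.43 and 11.1 ± 1.57%. The Mef2a share ran from 26.7 to 30.5% in vehicle and from 29.5 to 31.7% in MEKi hearts, so that the groups overlapped through vehicle heart 5 alone. The Mef2c share differed by −0.642 percentage points (exact permutation test, two-sided, p = 0.524). No test was set for the other shares. All of these shares rest on the lengths in the table, 5985 bases for Mef2d, 14681 for Mef2a and 15715 for Mef2c. In fragments, Mef2a (from 1289 to 2152 per heart) was above Mef2d (from 983 to 1684) in every heart.

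**Figure D2:**
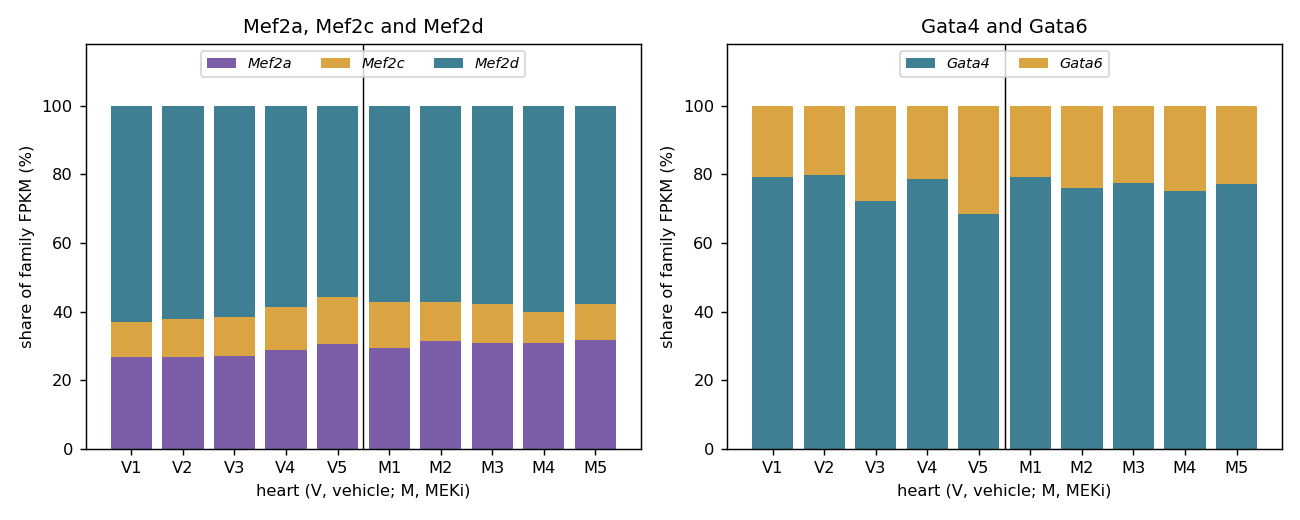
Share of the summed FPKM of Mef2a, Mef2c and Mef2d (left) and of Gata4 and Gata6 (right) held by each gene, in percent, as stacked bars for vehicle hearts V1 to V5 and MEKi hearts M1 to M5. Mef2d holds from 55.7 to 63.2% and Gata4 from 68.3 to 79.9% in every heart, and vehicle hearts 3 and 5 have the lowest Gata4 share. The shares are per length of gene and rest on the lengths in the table.

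The GATA factors act in cardiomyocytes as partners of Nkx2-5, Tbx5 and the Mef2 factors. Gata4 (chromosome 14, 63198922 to 63271692, minus strand) was at 19.5, 24.6, 22.9, 21.5 and 15.9 FPKM in vehicle hearts and at 25.7, 22.3, 23.0, 19.7 and 26.0 FPKM in MEKi hearts 1 to 5. The groups overlapped, with MEKi hearts 1 and 5 above every vehicle heart. The log2 fold change was 0.17 (SE 0.13, 95% interval −0.11 to 0.44; adjusted p = 0.794 by limma). Gata6 (chromosome 18, 11052508 to 11085635, plus strand), expressed in heart muscle and also in vascular smooth muscle, was at 5.06, 6.20, 8.82, 5.87 and 7.38 FPKM in vehicle hearts and between 6.51 and 7.73 FPKM (median, 6.76) in MEKi hearts. Its log2 fold change was 0.08 (SE 0.14, 95% interval −0.22 to 0.38; adjusted p = 0.925 by limma), and every MEKi heart lay between vehicle hearts 1 and 3. Gata4 made up 75.7 ± 5.14% of the Gata4 and Gata6 FPKM in vehicle hearts and 77.0 ± 1.56% in MEKi hearts (SD, n = 5; exact permutation test, two-sided, p = 0.611). The lowest shares were those of vehicle heart 5, at 68.3%, and vehicle heart 3, at 72.2%.

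The T-box factors pointed in opposite directions by amounts within their spread. Tbx5 (chromosome 5, 119832668 to 119885219, plus strand), an activator in atria, conduction system and left ventricle, was at 3.65, 4.75, 5.75, 5.28 and 3.69 FPKM in vehicle hearts and at 3.74, 4.60, 3.52, 4.09 and 4.96 FPKM in MEKi hearts 1 to 5. It was the one member with a lower MEKi mean (log2 fold change −0.13, SE 0.15, 95% interval −0.46 to 0.20; adjusted p = 0.879 by limma). Tbx20 (chromosome 9, 24718138 to 24774303, minus strand), needed for adult cardiomyocyte function, was at 3.38, 4.80, 7.97, 4.70 and 4.12 FPKM in vehicle hearts and at 5.63, 5.31, 4.35, 4.41 and 7.14 FPKM in MEKi hearts. Its log2 fold change was 0.14 (SE 0.21, 95% interval −0.32 to 0.60; adjusted p = 0.911 by limma). With a coefficient of variation of 27.2% over the 10 hearts, Tbx20 was the most variable of the 10 factors, through vehicle heart 3 and MEKi heart 5 in particular.

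Hand2 (chromosome 8, 57320983 to 57324633, plus strand), a factor of the right ventricle in the embryo, varied least, with a coefficient of variation of 9.21%. It was at 12.4, 13.1, 13.4, 13.4 and 12.0 FPKM in vehicle hearts and at 11.1, 14.5, 13.6, 14.7 and 11.5 FPKM in MEKi hearts 1 to 5. The MEKi hearts lay on both sides of the vehicle range, 3 above and 2 below it, for a log2 fold change of 0.02 (SE 0.10, 95% interval −0.20 to 0.23; adjusted p = 0.978 by limma). Its antisense neighbor AV026068 (chromosome 8, 57281117 to 57324233, minus strand) covers 3251 bases of Hand2 and all of the upstream sequence shown above. AV026068 was at 3.62 ± 0.540 FPKM in vehicle and 4.13 ± 0.766 FPKM in MEKi hearts (SD, n = 5; log2 fold change 0.18, adjusted p = 0.818 by limma). How strand was handled in counting is not given in the sources used here, so reads of the 2 genes may not be separable.

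Srf (chromosome 17, 46548329 to 46556175, minus strand), the CArG box factor of cytoskeletal and immediate early genes, was at 21.5, 28.3, 34.6, 26.9 and 19.2 FPKM in vehicle hearts. MEKi hearts 1 to 5 had 27.7, 27.3, 24.8, 23.4 and 34.2 FPKM. The vehicle range enclosed every MEKi heart. The means were 26.1 ± 6.04 and 27.5 ± 4.16 FPKM (SD, n = 5), and the log2 fold change was 0.09 (SE 0.16, 95% interval −0.26 to 0.44; adjusted p = 0.930 by limma).

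Other genes overlap the members in the annotation and share the limit on strand. Lysmd4, on the opposite strand, covers 76168 bases of the Mef2a locus and was at 2.82 ± 0.784 FPKM in vehicle and 2.85 ± 0.322 FPKM in MEKi hearts (SD, n = 5; log2 fold change 0.05, adjusted p = 0.963 by limma). The antisense 1010001N08Rik overlaps 60 bases of Gata6 and stood at 1.18 ± 0.445 and 1.42 ± 0.189 FPKM (log2 fold change 0.31, adjusted p = 0.796 by limma). Up to 13 fragments per heart fell on 1700113A16Rik in the Mef2d locus and up to 11 on Gm44667 in the Mef2a locus. Gm26904 and Mir6976 at Srf and Gm44668 at Mef2a were listed at 0.

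Over all 12602 genes tested, 10 (0.0794%) passed a limma adjusted p of 0.05, and 0 of the 10 factors were among them. In a fit without X, Y and mitochondrial genes, 0 genes passed. Among all 12602, an unadjusted p under 0.05 was found for 2 of 10 factors, both higher with MEKi. The share was 7.62% of all genes tested, and 3.67% for the higher direction. The groups did not overlap for 2 of the 10 factors, again both higher, against 1.64% of all genes in either direction and 0.794% in that direction. Of the 10 factors, 9 had a higher MEKi mean, with a median log2 fold change of 0.10, where all genes tested had 0.01. Without the 3 hearts high in atrial transcripts, 6 of 10 were higher with a median of 0.07, and without the 2 hearts high in haemoglobin transcripts 7 of 10 with a median of 0.06. Of the 747 tested genes with a transcription factor family, 369 were higher and 378 lower, 0 passed the threshold, 59 had an unadjusted p under 0.05 and 18 did not overlap between groups. The 95% intervals of the 10 factors together ran from −0.46 to 0.60 on the log2 scale, which corresponds to folds between 0.729 and 1.51. By exact permutation of the hearts, p lay between 0.230 and 0.833 for the 8 factors that overlapped.

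**Figure D3:**
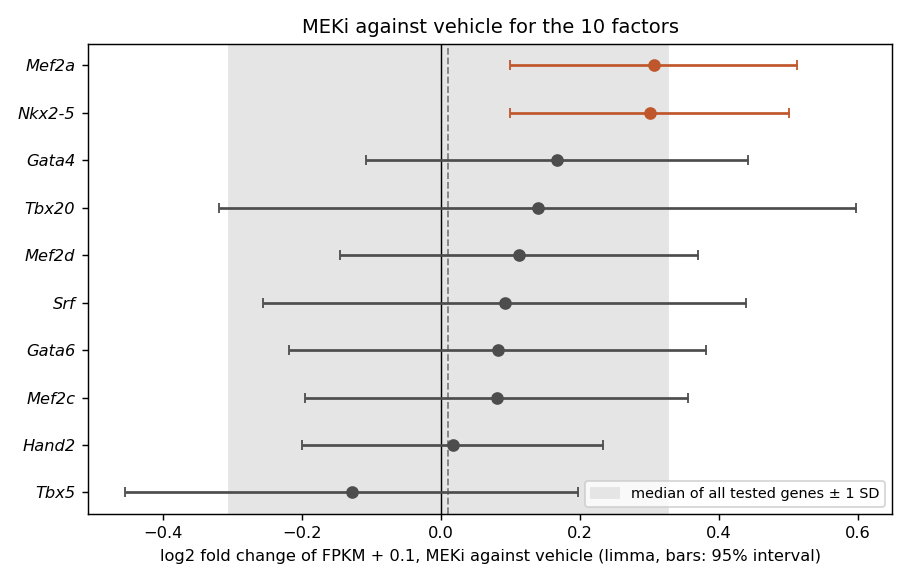
Log2 fold change of FPKM + 0.1, MEKi against vehicle, with its 95% interval (limma), for each of the 10 factors. The grey band is the median of all 12602 genes tested ± 1 SD (0.01 ± 0.316), the dashed line that median, and orange marks Mef2a and Nkx2-5, whose groups did not overlap and whose intervals start at 0.10.

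The factors shared some of their variation between hearts. Vehicle heart 3 was the highest vehicle heart for 8 of the 10 factors and the highest of all hearts for 4, and MEKi heart 5 was the highest MEKi heart for 7 and the highest of all for 3. Vehicle heart 1 was the lowest of all for 4 factors and vehicle heart 5 for 3. The summed FPKM of the 10 factors was 139.4, 163.1, 172.6, 142.1 and 126.5 in vehicle hearts and 165.1, 162.9, 167.3, 158.9 and 180.1 in MEKi hearts 1 to 5. Vehicle hearts 1, 4 and 5 were thus below every MEKi heart, in a sum that weights the most abundant factors, Nkx2-5 above all. Vehicle heart 3 also had the largest mitochondrial share of fragments, 35.0%, and MEKi heart 5 had 27.4%. The library sizes implied for these hearts were 0.925 and 1.04 times their fragment totals. The part of the shares and of this scaling in the pattern was not tested.

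Of the 45 pairs of factors, 39 correlated positively over the 10 hearts (median r = 0.442), and 36 did so after the group means were removed (median r = 0.518). The hearts share one scaling each, and pairs that share a gene are not independent. Tbx20 and Srf was the one pair past the threshold of 0.05 by both measures after adjustment over 45 pairs, with Pearson's r = 0.904 (permutation p = 0.00055, adjusted p = 0.0247) and Spearman's rho = 0.939 (permutation p = 0.00021, adjusted p = 0.00945). Without the 2 hearts farthest from the median it was r = 0.768, and within groups r = 0.900. Nkx2-5 and Mef2a had r = 0.783 (permutation p = 0.00763, adjusted p = 0.0701) and rho = 0.903 (permutation p = 0.00085, adjusted p = 0.0191), with r = 0.672 without the 2 farthest hearts. Within groups it was r = 0.384, so part of the pooled value is the difference between the groups. Hand2 had r between −0.433 and 0.225 against the other 9 factors over the 10 hearts. These values pool opposite signs, since among the 5 vehicle hearts its r was positive with 9 of 9 factors and among the 5 MEKi hearts negative with 8 of 9. Groups of 5 hearts are too few for a value of r, and the difference between the groups was not tested.

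**Figure D4:**
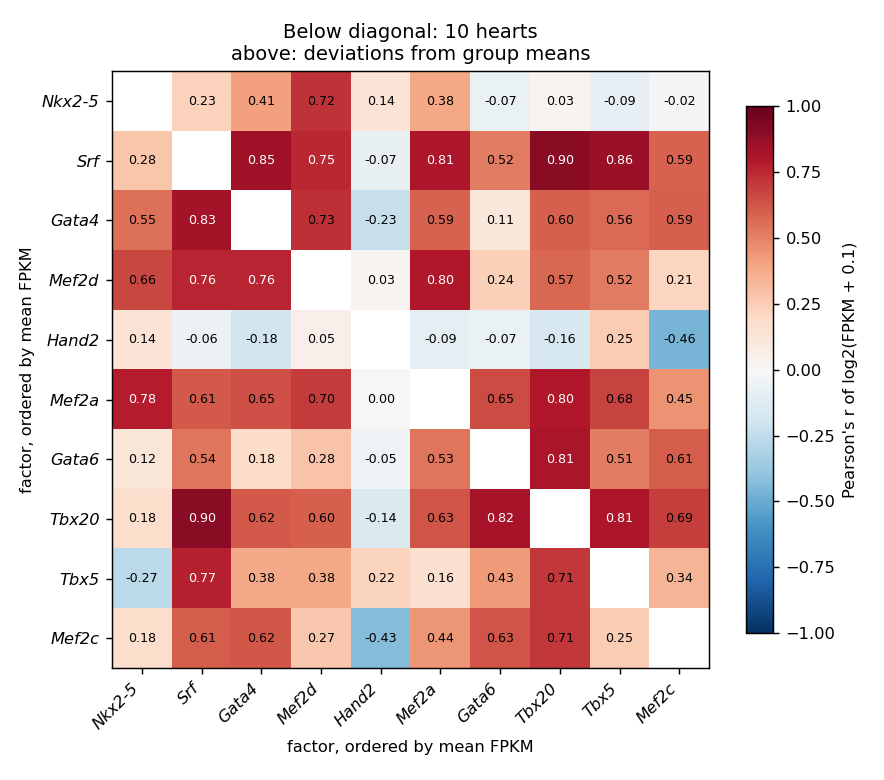
Pearson's r of log2(FPKM + 0.1) between each pair of factors, below the diagonal over the 10 hearts and above it for deviations from the group means, with red for positive and blue for negative values on a scale from −1 to 1. Srf and Tbx20 reach 0.90 on both sides of the diagonal, Nkx2-5 and Mef2a fall from 0.78 to 0.38, and Hand2 runs from −0.46 to 0.25 on both sides, values that pool opposite signs in the vehicle and MEKi hearts.

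For 9 of the factors, the protein-coding gene with the most similar profile over the 10 hearts, among 11251 compared by Pearson's r, was Akr1c13 for Nkx2-5 (r = 0.961), Ctnna1 for Mef2a (0.964), Krr1 for Mef2d (0.967), Zfp128 for Mef2c (0.913), Ak4 for Gata4 (0.960), Selenot for Gata6 (0.968), Jagn1 for Tbx5 (0.958), Cbx3 for Tbx20 (0.972) and Brap for Hand2 (0.897). None of these was another of the 10. The highest of so many values is a description and carries no test.

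Among 38 other transcription factors of the heart, 31 passed the expression filter, of which 20 were higher and 11 lower with MEKi. Their median log2 fold change was 0.09, and 0 were called. An unadjusted p under 0.05 was found for 4 of them. Hey1, a repressor downstream of Notch, was at 4.66 ± 1.00 FPKM in vehicle and 2.74 ± 0.540 FPKM in MEKi hearts (SD, n = 5; log2 fold change −0.74, SE 0.16, adjusted p = 0.254 by limma). Meis1, a homeodomain factor linked to the exit of cardiomyocytes from the cell cycle, was at 1.10 ± 0.0857 and 1.58 ± 0.158 FPKM (log2 fold change 0.48, adjusted p = 0.318 by limma), and Irx3, a factor of the ventricular conduction system, at 10.6 ± 2.21 and 14.7 ± 0.928 FPKM (0.49, adjusted p = 0.456 by limma). The groups did not overlap for either. Tbx3, a repressor of the working myocardial program in the conduction system, was at 1.18 ± 0.107 and 0.859 ± 0.200 FPKM (log2 fold change −0.44, adjusted p = 0.579 by limma). The nearest relatives of the members were scarce. Gata5 was at 0.144 and 0.148 FPKM and Mef2b at 0.0951 and 0.148 FPKM in the vehicle and MEKi means, both under the filter, and Hand1 was listed at 0 in every heart.

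Of 29 cofactors and repressors of these factors, 27 were tested, 16 higher and 11 lower. Their median log2 fold change was 0.03, and 0 were called, with 3 higher and 2 lower at an unadjusted p under 0.05. Trim63, a ubiquitin ligase of the sarcomere, was at 35.1 ± 5.37 FPKM in vehicle and 46.0 ± 5.50 FPKM in MEKi hearts (SD, n = 5; log2 fold change 0.40, adjusted p = 0.481 by limma). Zfpm2, the Fog2 partner of Gata4, had a log2 fold change of 0.44 (adjusted p = 0.512 by limma), and Hdac9, a class II deacetylase that represses Mef2 proteins, one of 0.55 (adjusted p = 0.584 by limma). Cabin1, a calcineurin-binding repressor of Mef2, was lower without overlap, at 2.06 ± 0.144 and 1.70 ± 0.158 FPKM (log2 fold change −0.27, adjusted p = 0.591 by limma). The fifth at an unadjusted p under 0.05 was Zfpm1, the related Fog1, named after its values were seen, with a log2 fold change of −0.23 (adjusted p = 0.606 by limma). The 3 ternary complex factors of Srf, through which ERK acts on Srf target genes, were 2 higher and 1 lower with a median of 0.08, Elk1 at 0.08, Elk3 at 0.11 and Elk4 at −0.19 on the log2 scale (limma adjusted p of 0.958, 0.911 and 0.737).

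Of 33 cardiac genes that the factors are known to activate, 32 were tested, 21 higher and 11 lower, at a median of 0.05 on the log2 scale, with 0 called and 2, Gja1 and Kcnj2, at an unadjusted p under 0.05. Gja1, the gap junction protein connexin 43, was at 23.0 ± 3.67 FPKM in vehicle and 34.8 ± 11.1 FPKM in MEKi hearts (SD, n = 5; log2 fold change 0.56, SE 0.19, adjusted p = 0.517 by limma). Kcnj2, a potassium channel of the resting potential, had a log2 fold change of 0.50 (adjusted p = 0.626 by limma), Myh6, the adult myosin heavy chain, 0.29 (adjusted p = 0.665 by limma) and Ckm, the muscle creatine kinase, 0.21 (adjusted p = 0.715 by limma). Of 24 Srf target genes, 18 were tested, 6 higher and 12 lower, at a median of −0.14, with 0 called and 4 at an unadjusted p under 0.05. Egr1, an immediate early factor that ERK induces through Srf and the ternary complex factors, was at 4.54 ± 2.32 and 1.99 ± 0.773 FPKM (log2 fold change −1.08, SE 0.35, adjusted p = 0.478 by limma). Ier2, another immediate early gene, had −0.50 (adjusted p = 0.554 by limma) and Actg1, a cytoskeletal actin, −0.34 (adjusted p = 0.569 by limma), while Cyr61, a matricellular protein also under Yap control, had 0.38 (adjusted p = 0.543 by limma).

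Cell type markers were read beside the factors. The 9 cardiomyocyte markers were present in every heart, with sums from 15782 to 21758 FPKM in vehicle and from 15851 to 21472 FPKM in MEKi hearts and a median log2 fold change of 0.14. The 7 macrophage markers were all lower with MEKi, with a median of −0.36 and 3 of 7 (Lyz2, C1qb and Csf1r) at an unadjusted p under 0.05, and their sums ran from 447.2 to 769.1 FPKM in vehicle and from 360.1 to 449.2 FPKM in MEKi hearts. The atrial markers (6 of 7 tested, 6 lower, median −1.32) were highest in the hearts named above. In the other hearts their sums were from 192.1 to 268.7 FPKM with vehicle and from 142.6 to 473.1 FPKM with MEKi, and Myl7, an atrial myosin light chain, was from 2.03 to 27.0 FPKM with vehicle and from 1.58 to 5.54 FPKM with MEKi. The blood markers (5 lower, median −0.90) had sums from 2899 to 4323 FPKM in vehicle hearts 1 to 3 and from 2918 to 7386 FPKM with MEKi. Fibroblast markers had a median of −0.13 (3 higher and 5 lower), endothelial markers −0.12 (1 and 6), smooth muscle and pericyte markers −0.19 (1 and 6), and of 8 skeletal muscle markers 2 were tested, both higher, with Myh2, Myh4 and Myog listed at 0. None of these markers was called, and outside the macrophage list 2, the fibroblast genes Col1a1 (lower) and Lum (higher), had an unadjusted p under 0.05. The part of these shifts in the values of Nkx2-5 and Mef2a was not tested beyond the values given without the hearts high in atrial or blood markers.

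**Figure D5:**
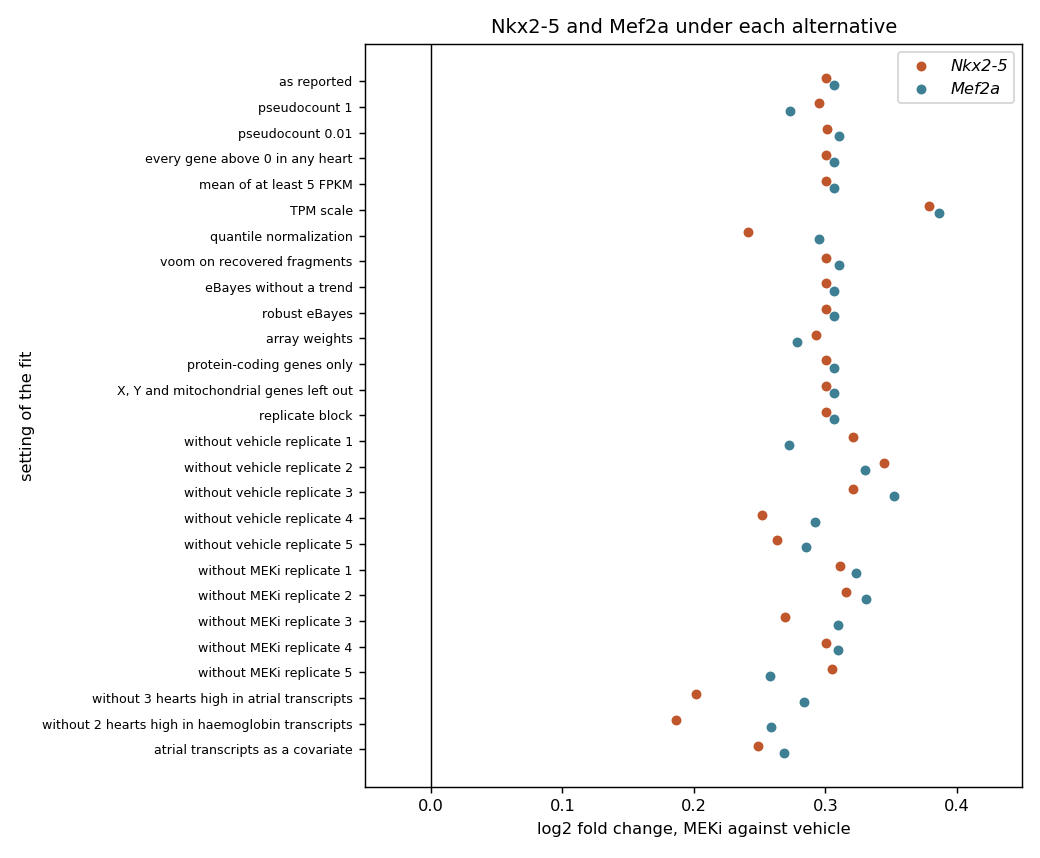
Log2 fold change, MEKi against vehicle, of Nkx2-5 (orange) and Mef2a (blue) as reported and under each of 26 alternatives, including leaving out each heart in turn. The values stay above 0 throughout, from 0.19 to 0.38 for Nkx2-5 and from 0.26 to 0.39 for Mef2a. The lowest for Nkx2-5 are those without vehicle hearts 4 and 5. Leaving out hearts cannot turn the sign of groups that do not overlap, and several alternatives change the test and not the fold change.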

How the data were processed

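RNA from 10 mouse hearts, 5 per group, was purified with RNeasy columns, and mRNA was captured on poly-T beads and primed with random hexamers. The authors deposited 1 table of FPKM per gene and heart; the labels' processing notes name fastp, STAR 2.5, HTSeq 0.6.1 and mm10 with no roles, and strand handling and annotation release are not given in the sources used here. All 10 columns were mapped to hearts by their labels. In 100% of values, FPKM times gene length was a whole multiple of 1 step per heart (tolerance 0.01), which gave the fragments used as depth. Of 54495 genes matched to GENCODE M21, 98.3% had the same coordinates, as had 8 of the 10 factors (Nkx2-5 ends and Gata6 starts elsewhere there).

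Genes whose mean over the hearts reached 0.5 FPKM were compared as log2(FPKM + 0.1), which understates changes of low genes, with limma 3.58.1 in R 4.3.3 (eBayes with trend, two-sided, Benjamini-Hochberg adjustment over 12602 genes, threshold 0.05). The study's methods state no test for these libraries. The fit was tested on simulated data. Exact permutation tests, correlations (100000 resamples) and promoter motifs used scipy 1.17.1, pandas 2.3.3, numpy 2.4.6 and statsmodels 0.14.6, and figures matplotlib 3.10.9, under Python 3.11.15. The genes named are the members, genes overlapping them, up to 4 genes with the smallest p from each list of factors, cofactors and targets, the relatives Gata5, Hand1 and Mef2b, and the gene most alike to each member, which for Srf is not reported here. The X- and Y-linked genes, Zfpm1 and the cell type markers were named after their values were seen. Members and lists were chosen with earlier results of these data known. Leaving out the hearts high in haemoglobin transcripts was an alternative chosen after seeing the data.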

Additional observations from a re-analysis of the deposited data

Results flagged for a closer look

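Among 24 groups of 5 hearts examined, 1 contained a heart far from the others, where chance would give about 1.2. Mef2a in MEKi heart 5 was at 9.33 FPKM, while the other MEKi-treated hearts lay between 7.60 and 8.07 FPKM, so that its gap to the nearest heart was 0.727 of the range of the group, above Dixon's critical value of 0.71 for 5 samples. Without that heart the log2 fold change of Mef2a was 0.26 (limma adjusted p = 0.660).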

How the results depend on the processing

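In none of the 26 alternatives was one of the 10 factors called. Their median log2 fold change ran from 0.02 without vehicle replicate 1 to 0.19 without vehicle replicate 3. Leaving out hearts could not turn the direction of Nkx2-5 or Mef2a, whose groups did not overlap with all hearts. Nkx2-5, Gata4, Tbx20, Mef2a, Mef2c and Tbx5 kept their direction wherever they were tested. Their size moved, however, when a heart was left out: Tbx20 from 0.02 (without vehicle replicate 1) to 0.32 (without vehicle replicate 3), Mef2c from 0.01 (without vehicle replicate 1) to 0.16 (without MEKi replicate 4), Gata4 from 0.07 (without vehicle replicate 5) to 0.23 (without vehicle replicate 2) and Tbx5 from −0.21 (without vehicle replicate 1) to −0.05 (without vehicle replicate 3). Directions turned for values near 0: Gata6 (−0.0097 to 0.19 when a heart was left out, the lowest without vehicle replicate 1), Srf (−0.0107 to 0.20, the lowest without vehicle replicate 5), and Hand2 (−0.0262 to 0.0733, below 0 without vehicle replicate 5 or MEKi replicate 2 or 4). Without the 3 hearts high in atrial transcripts Srf was at −0.0212, Mef2d at −0.0047, Hand2 at −0.0371 and the difference in Mef2c share at 0.154 percentage points, and without the 2 hearts high in haemoglobin transcripts Srf was at −0.0205 and Mef2d at −0.0405. The difference in Gata4 share ran from −0.526 (without vehicle replicate 5) to 2.36 percentage points when a heart was left out. On the TPM scale 1 factor, Mef2a, did not overlap between groups. The count of genes called over all genes, 10 as reported, was 2 at a mean of at least 5 FPKM, where 8 factors were tested, 18 with array weights, 0 when genes on X, Y and the mitochondrial genome were dropped (924 at an unadjusted p under 0.05), 5 without the 3 or the 2 hearts named above, and 5 (without vehicle replicate 2) to 13 when a heart was left out. The causes were not tested. With the replicate number as a block, 4 genes were called and the adjusted p of Nkx2-5 was 0.736 and that of Mef2a 0.772. The numbers were not found to pair the hearts, since same-numbered hearts correlated at −0.154 to −0.0209, 0 of 5 pairs were over 0.1, and 0 vehicle hearts correlated best with their own number. With 5 hearts a group, the intervals of the factors leave room for folds from 0.729 to 1.51.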
